A study of Homo sapiens with 6 samples.

Results

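Vessel-acting factors were examined in oral cancer cells with a hairpin against interleukin-1β (IL-1β), an inflammatory cytokine that cells release. For this, the probe sets of 10 genes were followed across 6 arrays. The genes were VEGFB, VEGFC, PDGFA, PDGFC, FGF2, FGFBP1, EDN1 and F3, together with the receptors NRP1 and NRP2. A probe set, the short probes whose signals are summarised as 1 value, was taken as a member when its annotation gave a single symbol. That symbol had to be 1 of these 10. In all, 28 probe sets met the rule, of 54613 that were not array controls, and the 10 genes stood among 19775 with a single-symbol probe set. All cells were of the human line Cal27, established from a squamous carcinoma of the tongue and kept in medium with fetal bovine serum. The LV-shIL-1β group (3 arrays) carried a lentiviral short hairpin RNA against IL-1β, and the LV-shNC group (3 arrays) carried a scrambled hairpin from the same kind of vector. Both were made with polybrene and were selected in puromycin for 2 weeks, so each was a selected population and not the parental line. Loss of IL-1β, other effects of the hairpin and differences between the selected populations cannot be told apart here. Whether arrays within a group stem from independent cultures is not in the labels, and the p-values therefore reflect array-to-array spread that could be purely technical. The arrays measured RNA and not secreted protein.

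The stems of both hairpins are shown because they are the only designed difference between the groups. The sense strand is given in lower case, 5′ to 3′, without the loop.
LV-shIL-1β stem: ggagagtgtagatcccaaa
LV-shNC stem: ttctccgaacgtgtcacgt

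Tumours obtain vessels by releasing ligands that act on endothelial cells, on the mural cells around them and on lymphatic vessels. Vascular endothelial growth factors (VEGFs), platelet-derived growth factors (PDGFs) and fibroblast growth factors (FGFs) bind receptor tyrosine kinases. FGFs are held on heparan sulfate in the matrix, from which a carrier protein can free them. Neuropilins have no kinase activity of their own and serve as co-receptors for VEGFs and for class 3 semaphorins. Endothelin constricts vessels, and tissue factor starts the extrinsic pathway of blood coagulation.

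Promoter sequences of 3 members are shown because these genes are expressed at clear signal and differ in the short motifs they hold. Each window is the 250 bases before the start of the gene, from RefSeq on GRCh38.p14, written 5′ to 3′ on the strand of the gene. Capitals mark letters that match 1 of 4 searched motifs on either strand: AP-1 (TGANTCA), the GC box (GGGCGG), the TATA box (TATAAA) and the NF-kB consensus. FGFBP1 is at chr4:15938741-15938990 on the minus strand, VEGFC at chr4:176792923-176793172 on the minus strand, and F3 at chr1:94541760-94542009 on the minus strand.
FGFBP1: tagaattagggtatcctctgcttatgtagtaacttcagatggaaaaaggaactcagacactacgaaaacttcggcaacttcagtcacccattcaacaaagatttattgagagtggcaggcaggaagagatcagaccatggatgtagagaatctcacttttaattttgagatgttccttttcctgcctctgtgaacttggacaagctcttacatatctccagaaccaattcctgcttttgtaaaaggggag
VEGFC: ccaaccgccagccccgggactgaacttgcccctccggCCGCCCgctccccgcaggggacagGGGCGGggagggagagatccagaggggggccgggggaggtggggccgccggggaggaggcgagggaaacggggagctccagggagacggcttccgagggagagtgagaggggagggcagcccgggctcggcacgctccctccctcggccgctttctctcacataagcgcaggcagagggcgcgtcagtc
F3: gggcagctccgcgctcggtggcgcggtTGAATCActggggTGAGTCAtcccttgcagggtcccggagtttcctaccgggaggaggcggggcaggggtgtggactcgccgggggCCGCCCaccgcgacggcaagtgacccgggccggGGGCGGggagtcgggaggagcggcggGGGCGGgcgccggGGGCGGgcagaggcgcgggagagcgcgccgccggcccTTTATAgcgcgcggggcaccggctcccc
The FGFBP1 window had a GC content of 40.8% and held none of the 4 motifs, whereas the VEGFC window had 74.0% and held the GC box at 2 places. The F3 window (78.0% GC) held AP-1 at 2 places, and no other member window did. Over the 8 members with a window, 13 windows were searched. AP-1 was in 1 of the 13 against 6.57% of 35116 windows of all genes, the GC box in 10 against 42.6%, the TATA box in 2 (EDN1 and F3) against 10.7%, and the NF-kB consensus in 0 against 5.21%. Several windows belonged to 1 gene in PDGFA and EDN1, and a match describes letters only.

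The labels held for the target itself. IL1B gave signals of 1569, 1569 and 1597 in LV-shIL-1β and 2677, 2611 and 2494 in LV-shNC on its brighter probe set (log2 fold change -0.72 ± 0.04, SE, limma, Benjamini-Hochberg adjusted p = 2.46e-05). The change was -39.1% there and -40.2% on the other IL1B probe set, so IL1B RNA was lowered only in part. Median signals of the 6 arrays lay between 18.4 and 18.9. Correlations between arrays were at least 0.995 within groups and at most 0.994 between groups. For ACTB, the 3′ signal over the 5′ signal, which reads RNA integrity, had a log2 value of 0.393 ± 0.0536 in LV-shIL-1β and 0.412 ± 0.129 in LV-shNC (SD, n = 3 each). For GAPDH it was 0.0392 ± 0.0134 in LV-shIL-1β and -0.017 ± 0.0342 in LV-shNC, without overlap, and its part in the results below was not tested. Epithelial identity was clear, since all 9 squamous markers with a single-symbol probe set, of 12 listed, were above the filter. Their summed signals were 23000 to 23930 in LV-shIL-1β and 25290 to 26690 in LV-shNC. Of those markers, 4 were lower (KRT5, KRT14, KRT16 and PKP1). Among 12 endothelial markers, 7 were below the filter on every array, KDR, TEK and TIE1 among them, and the sums were 137 to 150.0 in LV-shIL-1β and 148.5 to 154.6 in LV-shNC. Of 10 fibroblast markers 5 were below it on every array, including DCN, FAP and PDGFRA, and the sums were 155.8 to 171.3 in LV-shIL-1β and 194.5 to 213.5 in LV-shNC. COL1A2 and LUM passed as lower but were tested only through their LV-shNC arrays, and COL1A2 did not pass without LV-shIL-1β array 2 (limma, adjusted p = 0.0598) or 3 (0.0539). Of 10 leukocyte markers listed, 7 had a single-symbol probe set. Of these 7, 5 were below the filter on every array, PTPRC among them, and CD14 was higher. The sums were 130.1 to 131.3 in LV-shIL-1β and 114.5 to 118.3 in LV-shNC. The part of these shifts in the results was not tested.

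Compared with the LV-shNC group, 4 member probe sets passed the test in the LV-shIL-1β group. FGFBP1, VEGFC and 1 of 2 PDGFA probe sets were lower, by 30.0% at the most, and 1 of 4 NRP1 probe sets was higher. VEGFB, PDGFC, FGF2, EDN1, F3 and NRP2 had no probe set that passed. A probe set was tested when at least 3 of the 6 arrays were above a signal of 18.6, the median of all values, and 21 of the 28 members were. The 7 others, 2 of NRP1 and 5 of NRP2, were below it on all 6 arrays. Among all 27566 probe sets tested with limma, 7.05% passed a Benjamini-Hochberg adjusted p of 0.05, 3.37% as lower and 3.68% as higher in LV-shIL-1β. Of the 21 members tested, 3 passed as lower and 1 as higher. The median log2 fold change was -0.08 over these 21 and 0.01 over all probe sets tested, and 15 members had a negative and 6 a positive value. In 8 of the 21 the arrays of the groups did not overlap, 6 with LV-shIL-1β lower and 2 with it higher, where 27.9% of all tested probe sets had no overlap. The members were chosen with earlier results of these data known, and 1 of them (NRP1 212298_at) was tested only through its LV-shIL-1β arrays. For both reasons these counts describe the list and are no support for it. In bulk RNA, fewer cells that express a gene and less RNA per cell cannot be told apart.

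**Figure D1:**
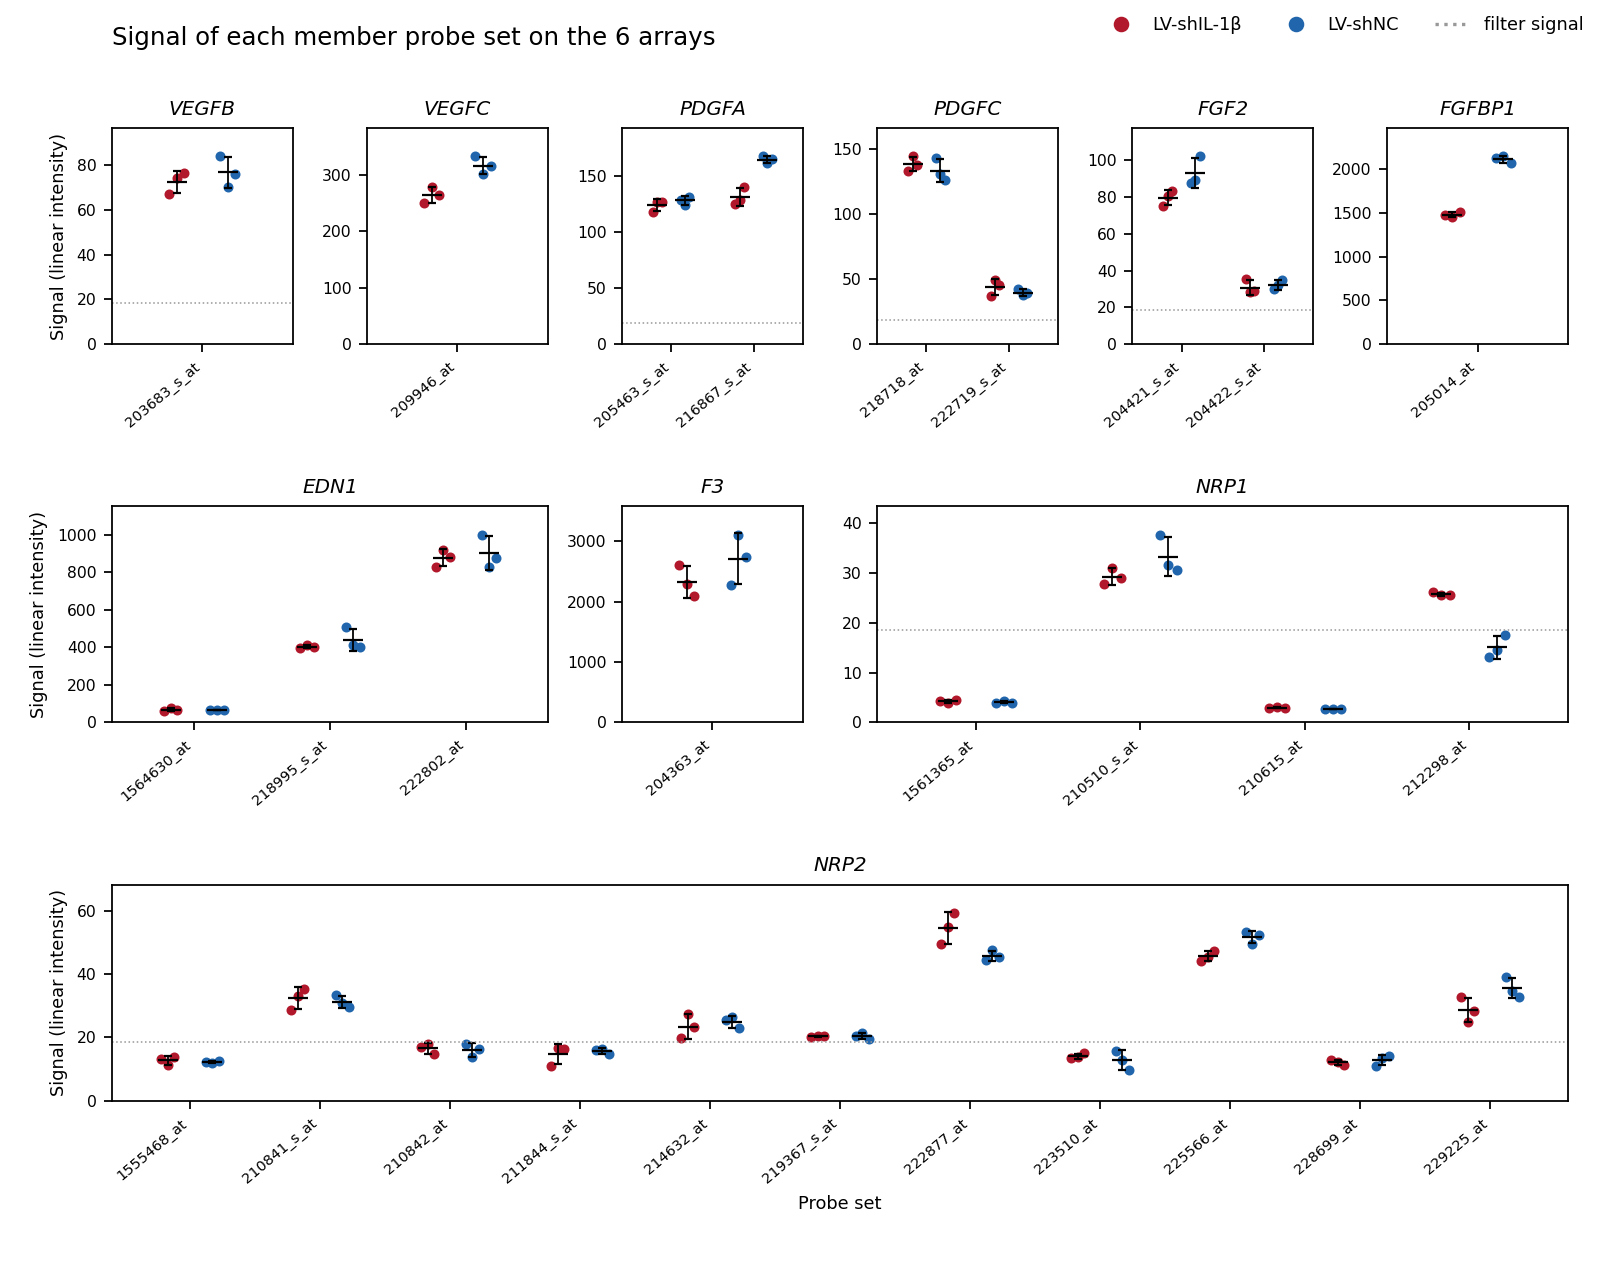
Signal of each of the 28 member probe sets (vertical axes, linear intensity, starting at 0) on the 3 LV-shIL-1β arrays (red) and the 3 LV-shNC arrays (blue); points are arrays, black marks the mean with its SD, and the dotted line is the filter signal of 18.6. FGFBP1 lies at 1450.0 to 1506 in LV-shIL-1β and 2064 to 2146 in LV-shNC, whereas most NRP2 probe sets lie near or below the filter.

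FGFBP1, a secreted carrier that binds FGFs and releases them from the matrix, had the lowest adjusted p of the members. Its signals were 1475, 1450.0 and 1506 in LV-shIL-1β and 2122, 2146 and 2064 in LV-shNC. The arrays of each group were close to one another, and the groups were far apart. Means were 1477 ± 28.0 in LV-shIL-1β and 2111 ± 42.3 in LV-shNC (SD, n = 3 each), a log2 fold change of -0.52 ± 0.04 (SE, limma, adjusted p = 0.000101). FGFBP1 thus fell by 30.0% (95% confidence interval of the change -33.7 to -26.1%). It passed in all 15 alternative settings, with adjusted p between 4.88e-05 and 0.0289.

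FGF2, the ligand that FGFBP1 carries and a growth factor for endothelial cells, was measured by 2 probe sets and passed on neither. On 204421_s_at the signals were 75.2, 80.6 and 83.5 in LV-shIL-1β and 87.4, 89.1 and 102 in LV-shNC. All LV-shIL-1β arrays were below all LV-shNC arrays, and the means were 79.8 ± 4.20 in LV-shIL-1β and 92.9 ± 8.12 in LV-shNC (SD, n = 3 each). The log2 fold change was -0.22 ± 0.08 (SE, 95% interval -0.40 to -0.04), with a limma adjusted p of 0.138. On 204422_s_at the signals were 35.5, 28.3 and 28.7 in LV-shIL-1β and 29.8, 32.1 and 35.0 in LV-shNC, which overlapped (-0.07 ± 0.11, adjusted p = 0.746). The interval on this probe set was -0.32 to 0.17, so a fall as large as on the other was within it.

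VEGFC, the growth factor of lymphatic vessels, which signals through FLT4, was lower in LV-shIL-1β on its single probe set. Signals were 250.4, 278 and 264 in LV-shIL-1β and 333, 301 and 315 in LV-shNC. No LV-shIL-1β array reached the lowest LV-shNC array. Means of 264 ± 13.9 in LV-shIL-1β and 316 ± 15.8 in LV-shNC (SD, n = 3 each) gave a log2 fold change of -0.26 ± 0.06 (SE, limma, adjusted p = 0.0341), a change of -16.4% (95% interval -23.9 to -8.10%). This call was close to the threshold. It was lost when any 1 of the 6 arrays was left out (adjusted p from 0.0562 without LV-shNC array 2 to 0.099 without LV-shIL-1β array 3), while the log2 fold change stayed between -0.30 and -0.22.

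VEGFB, a ligand of FLT1, did not pass. Its signals were 67.2, 74.2 and 76.5 in LV-shIL-1β and 84.1, 70.2 and 76.1 in LV-shNC, and the groups overlapped. The log2 fold change was -0.08 ± 0.09 (SE, limma, adjusted p = 0.637), and its 95% interval was -0.27 to 0.11.

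PDGFA, a ligand of PDGFRA that recruits mesenchymal cells, differed between its probe sets. On 216867_s_at the signals were 125, 128 and 140.4 in LV-shIL-1β and 168, 162 and 165 in LV-shNC, without overlap. Means were 131 ± 8.11 in LV-shIL-1β and 165 ± 3.09 in LV-shNC (SD, n = 3 each), a log2 fold change of -0.33 ± 0.06 (SE, limma, adjusted p = 0.0151), or -20.4% (95% interval -27.9 to -12.2%). Without LV-shIL-1β array 2 the adjusted p was 0.0775, and without LV-shNC array 3 it was 0.0528. The other probe set, 205463_s_at, gave 118, 127 and 127 in LV-shIL-1β and 129, 124 and 132 in LV-shNC. These arrays overlapped, and the log2 fold change was -0.05 ± 0.06 (adjusted p = 0.674). The log2 difference between both probe sets on an array (216867_s_at minus 205463_s_at), a comparison chosen after the values were seen, was 0.0827 ± 0.0685 in LV-shIL-1β and 0.361 ± 0.0307 in LV-shNC (SD, n = 3 each). All LV-shIL-1β arrays were below all LV-shNC arrays in it (exact permutation test, two-sided p = 0.1, the smallest that 3 against 3 allows). This design cannot reach an exact p of 0.05, and which transcripts each probe set detects was not analysed here.

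PDGFC, a ligand of PDGFRA that is secreted in a latent form and freed by proteolysis, passed on neither probe set. The brighter, 218718_at, gave 133.2, 145 and 138 in LV-shIL-1β and 143, 131 and 127 in LV-shNC (log2 fold change 0.06 ± 0.07, SE, limma, adjusted p = 0.685). The other, 222719_s_at, gave 37.2, 49.0 and 45.2 in LV-shIL-1β and 42.6, 37.5 and 39.1 in LV-shNC (0.13 ± 0.11, adjusted p = 0.508). The groups overlapped on both, and the 95% intervals were -0.10 to 0.21 and -0.11 to 0.38.

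EDN1, the precursor of the vasoconstrictor peptide endothelin, had 3 probe sets above the filter, and none passed. On 222802_at the signals were 830.2, 920.4 and 879 in LV-shIL-1β and 1001, 828 and 875 in LV-shNC (log2 fold change -0.04 ± 0.07, SE, limma, adjusted p = 0.797). On 218995_s_at they were 397, 412 and 401 in LV-shIL-1β and 507, 410.2 and 403 in LV-shNC (-0.12 ± 0.08, adjusted p = 0.434). LV-shNC array 1 was the highest array on both, and the other arrays overlapped. The third, 1564630_at, gave 58.7, 75.2 and 67.5 in LV-shIL-1β and 68.6, 66.0 and 65.9 in LV-shNC, with a log2 fold change of 0.00 ± 0.09 whose sign turned under other settings. The 95% intervals were -0.20 to 0.20 on 1564630_at, -0.19 to 0.12 on 222802_at and -0.30 to 0.06 on 218995_s_at.

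F3, tissue factor, the cell surface receptor of coagulation factor VII, was bright and varied between arrays. Signals were 2604, 2287 and 2087 in LV-shIL-1β and 2273, 3109 and 2742 in LV-shNC. LV-shNC array 1 lay among the LV-shIL-1β arrays, and the other LV-shNC arrays were above all of them. Means were 2326 ± 260 in LV-shIL-1β and 2708 ± 419 in LV-shNC (SD, n = 3 each), a log2 fold change of -0.21 ± 0.11 (SE, limma, adjusted p = 0.274, 95% interval -0.45 to 0.03). The value was -0.14 without LV-shIL-1β array 3, -0.33 without LV-shNC array 1 and -0.11 without LV-shNC array 2. It passed in none of the 15 alternative settings, with adjusted p between 0.0587 and 0.602.

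**Figure D2:**
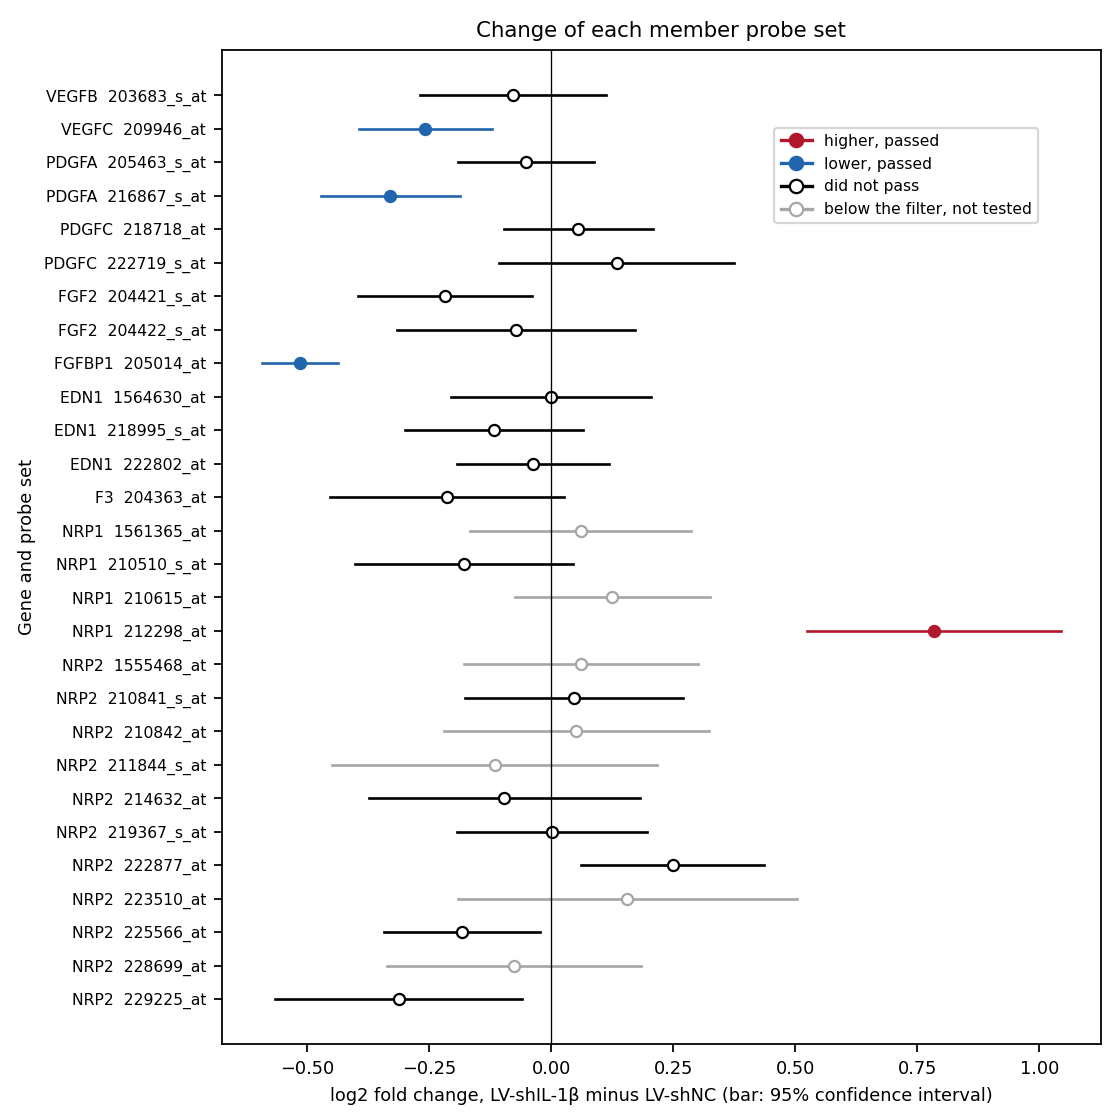
Log2 fold change of each member probe set, LV-shIL-1β minus LV-shNC (horizontal axis), with its 95% confidence interval from limma; filled points passed an adjusted p of 0.05, open black points did not, and grey points were below the filter and not tested. FGFBP1 (-0.52), PDGFA 216867_s_at (-0.33) and VEGFC (-0.26) lie to the left of 0 and NRP1 212298_at (0.78) to the right, while the other NRP1 probe set above the filter lies at -0.18.

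NRP1, the co-receptor of VEGFA and of the semaphorin SEMA3A, was higher in LV-shIL-1β on 212298_at and not on its other tested probe set. On 212298_at the signals were 26.1, 25.6 and 25.5 in LV-shIL-1β and 13.1, 14.5 and 17.6 in LV-shNC. The LV-shIL-1β arrays were nearly equal, and all were above the LV-shNC arrays, none of which reached the filter signal of 18.6. Means were 25.7 ± 0.328 in LV-shIL-1β and 15.0 ± 2.28 in LV-shNC (SD, n = 3 each), a log2 fold change of 0.78 ± 0.12 (SE, limma, adjusted p = 0.00423). It was the only member past a fold of 1.5 with an unadjusted limma p under 0.05, which 0.472% of the 54613 probe sets met. This rule only approximates the study's criterion, since its methods name a detection P value and not a p for the group difference. The size of the change depended on the scale at these low signals. With a pseudocount of 16 the log2 fold change was 0.43 (adjusted p = 0.00341), which is under the fold of 1.5.

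On 210510_s_at, NRP1 gave 27.8, 31.1 and 28.9 in LV-shIL-1β and 37.7, 31.6 and 30.5 in LV-shNC, a log2 fold change of -0.18 ± 0.10 (SE, limma, adjusted p = 0.326) with overlapping groups. The log2 difference between both probe sets on an array (212298_at minus 210510_s_at), again chosen after the values were seen, was -0.185 ± 0.0931 in LV-shIL-1β and -1.15 ± 0.364 in LV-shNC (SD, n = 3 each, exact permutation test, two-sided p = 0.1, the smallest possible). The means differed by 0.96, or by 0.55 with a pseudocount of 16. Since all LV-shNC signals of 212298_at were below the filter, this difference is a description of the values only. The remaining probe sets, 1561365_at (3.90 to 4.56 in LV-shIL-1β and 3.93 to 4.23 in LV-shNC) and 210615_at (2.83 to 3.08 in LV-shIL-1β and 2.62 to 2.76 in LV-shNC), were far below the filter.

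NRP2, a co-receptor of VEGFC and of SEMA3F, had 11 probe sets, of which 6 were tested and 0 passed with limma. On 222877_at the signals were 49.5, 54.9 and 59.4 in LV-shIL-1β and 44.4, 47.5 and 45.6 in LV-shNC. The groups did not overlap, with LV-shIL-1β higher, and the log2 fold change was 0.25 ± 0.08 (SE, limma, adjusted p = 0.111, unadjusted p = 0.0144). It passed only when arrays were weighted by their quality (0.28, adjusted p = 0.0465). On 225566_at the signals were 44.1, 45.4 and 47.3 in LV-shIL-1β and 53.4, 49.5 and 52.4 in LV-shNC, and here LV-shIL-1β was the lower group without overlap (-0.18 ± 0.07, adjusted p = 0.163, unadjusted p = 0.0291). On 229225_at they were 32.8, 25.0 and 28.3 in LV-shIL-1β and 39.1, 34.7 and 32.8 in LV-shNC, with the nearest arrays at 32.81 in LV-shIL-1β and 32.84 in LV-shNC (-0.31 ± 0.11, adjusted p = 0.135, unadjusted p = 0.0206). These 3 probe sets of 1 gene thus pointed to different sides and none passed. The other 3 that were tested, 210841_s_at, 214632_at and 219367_s_at, overlapped between groups and had log2 fold changes of 0.05 ± 0.10, -0.10 ± 0.12 and 0.00 ± 0.09. The 5 below the filter had signals between 9.68 and 18.02.

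The members that passed differed in how they held up. FGFBP1 passed whichever array was left out, PDGFA 216867_s_at in 4 of 6 such fits and VEGFC in 0 of 6. NRP1 212298_at also passed in 6 of 6, but it entered the test only through its LV-shIL-1β arrays and has no value under the stricter filter, so this is no sign of stability.

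**Figure D3:**
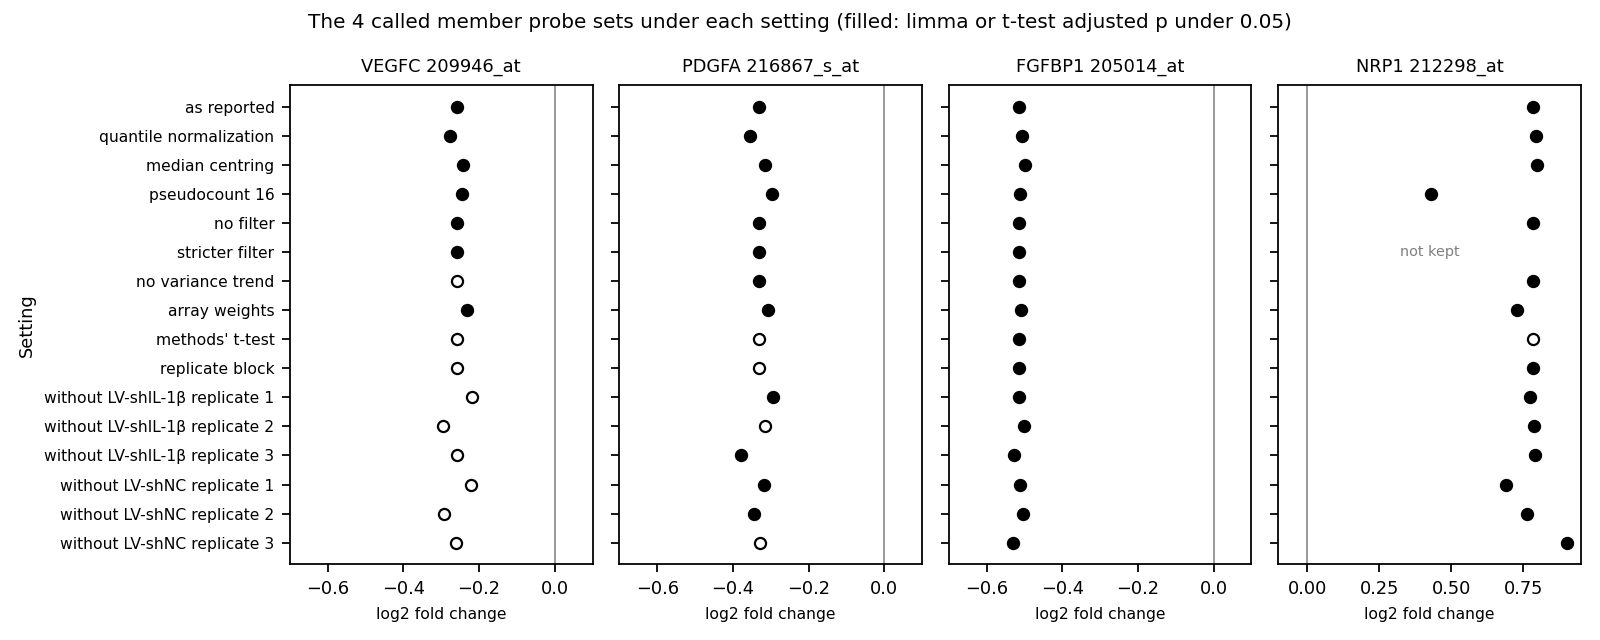
Log2 fold change, LV-shIL-1β minus LV-shNC (horizontal axes), of the 4 member probe sets that passed, under the reported setting (top) and 15 alternatives; filled points had an adjusted p under 0.05. FGFBP1 stays between -0.53 and -0.50 with every point filled, VEGFC loses its call with each array left out, and NRP1 212298_at drops to 0.43 with a pseudocount of 16 and has no value under the stricter filter.

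The other genes of the same pathways were taken from 5 lists, with each gene represented by its brightest probe set above the filter. Other probe sets of these genes are not described here and may differ. Among all 12322 genes so represented, 8.52% passed with limma, and the median log2 fold change was 0.00. The lists were also chosen with earlier results of these data known, so their counts below are descriptions only. Of 19 genes above the filter in the list of other secreted angiogenic factors and their families, 2 were higher, 2 were lower and 15 did not pass (median 0.05). ADM, the vasodilator peptide adrenomedullin, had signals of 1267, 1243 and 1253 in LV-shIL-1β and 949, 916 and 951 in LV-shNC, a rise without overlap (0.42 ± 0.04, SE, limma, adjusted p = 0.000367). FGF11, an FGF family member of the list that is not secreted, was higher (0.28 ± 0.07, adjusted p = 0.0351). EDN2, a second endothelin precursor, was lower (-0.51 ± 0.11, adjusted p = 0.0258), as was APLN, the precursor of the peptide apelin (-0.34 ± 0.08, adjusted p = 0.032). VEGFA, named here after its value was seen because NRP1 binds it, did not pass (0.12 ± 0.07, adjusted p = 0.37). ADM passed in all 6 fits that left out an array. FGF11 passed in 0 of 6 (adjusted p 0.0781 to 0.0989), APLN only without LV-shNC array 3 (0.0436), and EDN2 failed without LV-shIL-1β array 1 (0.0628) or 3 (0.0889) and without LV-shNC array 1 (0.0741) or 3 (0.0602).

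Of 18 receptors, co-receptors and plexins above the filter, 0 were higher with limma, 3 were lower and 15 did not pass (median -0.05). GPC1, glypican 1, a heparan sulfate proteoglycan of the cell surface that binds FGF2, had signals of 255, 237 and 261 in LV-shIL-1β and 363, 354 and 345 in LV-shNC (-0.50 ± 0.06, SE, limma, adjusted p = 0.00119). FGFR3, an FGF receptor kinase, gave 345, 325 and 338 in LV-shIL-1β and 466, 417 and 436 in LV-shNC (-0.39 ± 0.06, adjusted p = 0.00382), and FGFR2, another, gave 128, 134 and 137 in LV-shIL-1β and 165, 155 and 166 in LV-shNC (-0.28 ± 0.06, adjusted p = 0.0226). The groups did not overlap for any of these. GPC1 and FGFR3 passed whichever array was left out, whereas FGFR2 failed without LV-shIL-1β array 2 (0.0853) or 3 (0.0583) and without LV-shNC array 1 (0.064) or 3 (0.0807). The VEGFC receptor FLT4 was tested and did not pass (0.05 ± 0.10), and the PDGFA receptor PDGFRA was below the filter.

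Among 3 class 3 semaphorins above the filter, SEMA3F, the ligand of NRP2, was lower (-0.23 ± 0.06, SE, limma, adjusted p = 0.0431) but passed in 0 of 6 fits without an array (0.0619 to 0.138), and the median of the list was -0.02. SEMA3A, the ligand of NRP1, had a log2 fold change of -0.02 ± 0.08. Of 11 genes of the tissue factor pathway and of the proteases that process the ligands, 1 was higher, 1 was lower and 9 did not pass (median -0.02). ECE2, a protease that can convert endothelin precursors, was higher (0.40 ± 0.08, adjusted p = 0.0152), though not without LV-shIL-1β array 2 (0.0703) or 3 (0.0665) or LV-shNC array 2 (0.0571). THBD, the anticoagulant receptor thrombomodulin, was lower (-0.28 ± 0.07, adjusted p = 0.0387) and passed in 0 of 6 fits without an array (0.0539 to 0.125).

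Of 8 angiogenesis inhibitors above the filter, 1 was higher, 2 were lower and 5 did not pass (median -0.15). THBS1, the matrix glycoprotein thrombospondin 1, gave 1497, 1560.0 and 1475 in LV-shIL-1β and 1931, 1974 and 1723 in LV-shNC (-0.31 ± 0.05, SE, limma, adjusted p = 0.00826), and passed whichever array was left out. ADAMTS1, a secreted metalloprotease, was lower (-0.46 ± 0.09, adjusted p = 0.0202), though not without LV-shIL-1β array 1 (0.0503) or 3 (0.066) or LV-shNC array 3 (0.0582). CXCL10, a chemokine that restrains endothelial growth, was higher (0.33 ± 0.06, adjusted p = 0.0155), though not without LV-shIL-1β array 2 (0.0732) or 3 (0.0645) or LV-shNC array 2 (0.0516). Lower signals thus occurred among both ligands and inhibitors.

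**Figure D4:**
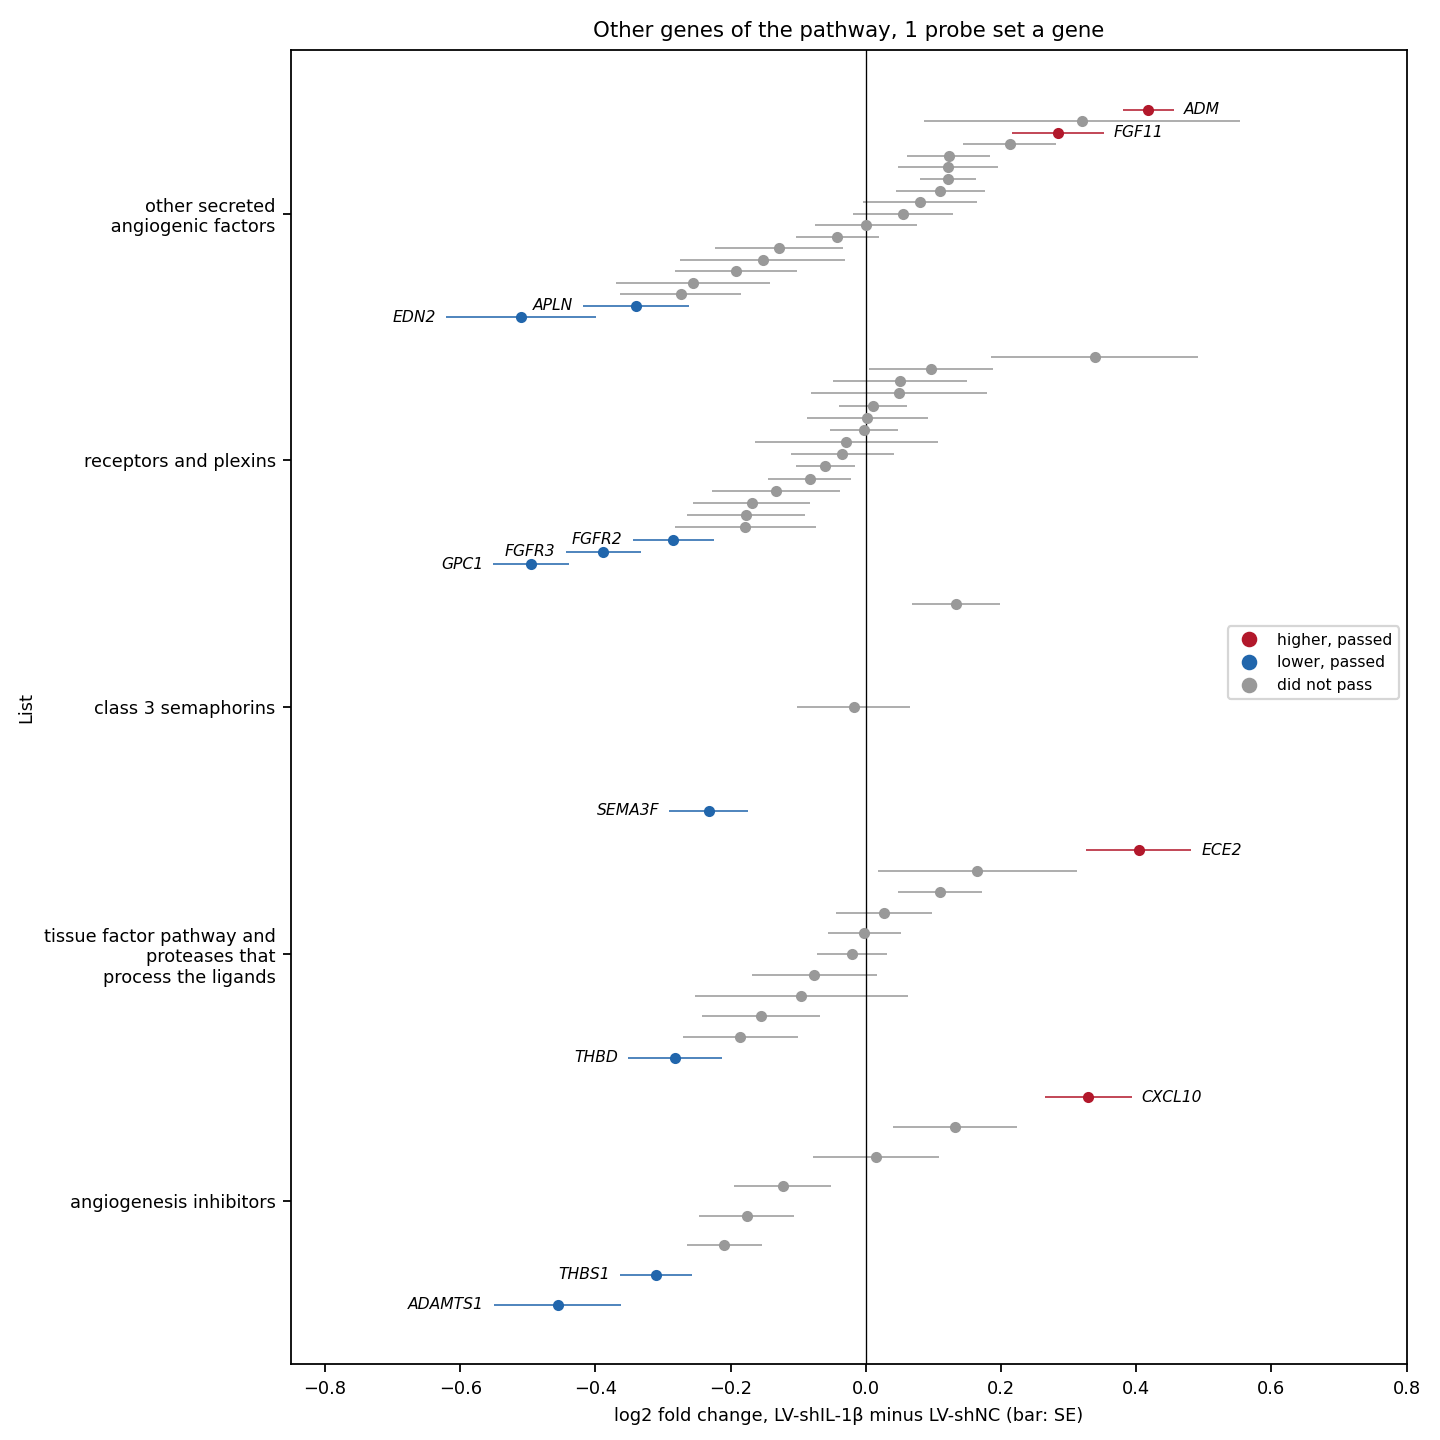
Log2 fold change, LV-shIL-1β minus LV-shNC (horizontal axis), of the other genes of the pathway by list, 1 probe set a gene, with the SE as a bar; red and blue points passed as higher and lower, and grey points did not pass. GPC1 (-0.50), FGFR3 (-0.39) and FGFR2 (-0.28) are the receptors that passed, and ADM (0.42) is the secreted factor with the largest rise.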

How the data were processed

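RNA of Cal27 cells with LV-shIL-1β or LV-shNC (3 arrays each, grouped by the labels) was hybridised to Affymetrix Human Genome U133 Plus 2.0 arrays. The authors deposited linear intensities, with 1 value per array for each of 54675 probe sets. The submitters' notes name MAS5 without a version, and its settings were not given in the sources. Whether values had been scaled across arrays is not stated. Array medians were 18.4 to 18.9, and the values were put on the log2 scale with no further normalization. A floor chosen by the software bears most on low signals such as those of NRP1 and NRP2. Precision is limited by the number of arrays. No detection calls were used.

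The 62 control probe sets were left out, and 27566 with at least 3 of 6 arrays above 18.6, the median of all other values, were tested with limma (version 3.58.1, run under R 4.3.3; lmFit followed by two-sided eBayes with the trend option) and Benjamini-Hochberg adjustment over all of them (threshold 0.05). The fit was tested on data simulated from its own variance model with independent arrays. That checks the calculation only and cannot show whether the real arrays were independent. Alternatives were other scalings, a pseudocount of 16, other filters, no variance trend, array weights, a t-test, the replicate number as a block, and each array left out. For the list genes, the probe set of largest variance and the mean over probe sets were also tried. Gene names came from the platform annotation (1 symbol for 41097 probe sets, several for 1801, none for 11777), and the 28 member probe sets matched RefSeq on GRCh38.p14 by identifier, as did the promoters by symbol. The files name no genome build, so probe sets have no coordinates here. Named by rule were every member with all its probe sets, IL1B, and from each list the genes that passed, up to 6. Cell type markers were named too, and VEGFA, FLT4, SEMA3A and PDGFRA were added outside that rule as partners of members. Members and lists were chosen with earlier results of these data known.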

Additional observations from a re-analysis of the deposited data

How the results depend on the processing

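Of the 4 member probe sets that passed, 1 (FGFBP1) did so with a t-test per probe set and Benjamini-Hochberg adjustment. With the replicate block 2 did so (FGFBP1 and NRP1 212298_at). Over all probe sets the counts were 267 with that t-test and 568 with the block against 1943, and over the genes of the pathway lists 3 and 4 against 13. FGFR3 (adjusted p = 0.0727) and THBS1 (0.131) were among the list genes that failed that t-test. Leaving out an array gave 2 to 3 members, 696 to 1808 probe sets and 4 to 8 list genes. With the probe set of largest variance for each gene 14 list genes passed, and with the mean over its probe sets 13 did. Same-numbered arrays did not deviate together (correlations of -0.394, -0.112 and -0.214), so the numbers were not taken to pair samples. Past the fold of 1.5 there were 0 members with a pseudocount of 16 and 0 with the stricter filter (all 6 arrays above 18.6), which removes NRP1 212298_at by construction.

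The sign turned only for probe sets that passed in no setting. EDN1 1564630_at had log2 fold changes of 0.0148 with median centring, 0.000812 with the pseudocount, 0.0504 with array weights and -0.086 to 0.0927 with an array left out. EDN1 222802_at had 0.00274 with array weights and -0.096 to 0.0401 with an array left out. With an array left out, NRP2 210841_s_at ranged from -0.0208 to 0.134, 214632_at from -0.212 to 0.0234 and 219367_s_at from -0.0322 to 0.0347. The cause was not tested. VEGFC also failed without the variance trend (adjusted p = 0.0722). Signals near the filter, as for NRP1 and most of NRP2, limit what these arrays can show.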
